A study of Homo sapiens with 11 samples.

Results

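The genes described here are NFE2L2, which encodes the transcription factor NRF2, its repressor KEAP1, and 7 classical NRF2 targets, NQO1, HMOX1, GCLC, GCLM, TXNRD1, SRXN1 and SLC7A11. These 9 genes were taken by name, as known members of the pathway, and were set against 19645 protein-coding genes among the 58288 genes of the RNA-seq data. The study profiled HK2, human kidney proximal tubule epithelial cells immortalised with papillomavirus genes, under 1 condition. Histone H3K4me3, which marks promoters, H3K27ac, found at active promoters and enhancers, and H3K27me3, a mark of repressed chromatin, were each measured by ChIP-seq in 2 replicates, and RNA by 2 RNA-seq libraries. In every sample the cells grew in DMEM-F12 with 10% FBS, penicillin-streptomycin and 0.05% DMSO, and the labels name no oxidant, NRF2 activator or gene deletion. All values therefore describe unstimulated cells of 1 line, and the genes were compared with each other and with the rest of the genome, not between treatments. Nothing in the labels states that replicates came from separate cultures.

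NRF2 is held low in resting cells by KEAP1, an adaptor that presents it to the CUL3 ubiquitin ligase for degradation. Oxidants and electrophiles modify KEAP1, NRF2 then accumulates, pairs with a small MAF protein and binds the antioxidant response element (ARE) beside its targets. The pathway is known in the proximal tubule for its protection against ischaemic and toxic injury. Because NRF2 is controlled mainly as a protein, RNA and histone marks show the state of its gene and targets but not the amount of NRF2.

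The ARE was searched on both strands in 2 forms: the core TGACNNNGC, in which N is any base, and the full pattern TGACTCAGC, which is 1 form of the core and also contains TGACTCA, the element bound by AP-1. Within the 9 gene bodies and 50 kb on either side, the full pattern occurred 28 times, and 8 of these matches lay inside H3K27ac peaks of both replicates. These are shown first, because at them the full pattern coincided with active chromatin. Each name gives the distance in bp from the transcription start site (TSS), negative upstream, the sequence is GRCh37 in the orientation of the pattern, and capitals mark the match.
NQO1 -451: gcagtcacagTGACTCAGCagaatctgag
HMOX1 -9073: ctcgggaccgTGACTCAGCaggaaaaaca
HMOX1 -9015: accgggaccgTGACTCAGCgaaaacagat
HMOX1 -8986: ctctagaccgTGACTCAGCgaaaacagac
HMOX1 -3936: gaggcactggTGACTCAGCaaaatctagc
GCLC -70957: caaatcactgTGACTCAGCacctgtactt
GCLM +30834: tgtctcattcTGACTCAGCgatgcaggga
TXNRD1 -6717: gtgacctccaTGACTCAGCccttacctta
GCLC had another match near its promoters, covered by H3K27ac in replicate 1 only.
GCLC -3152: cgcctccccgTGACTCAGCgctttgtgcg

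In NQO1 the match at chr16:69760910-69760918 lay upstream of the gene, in an exon of the divergent lncRNA NQO1-DT and 2 bp from an annotated start of that lncRNA. The 3 farther matches of HMOX1, at chr22:35768012-35768020, chr22:35768070-35768078 and chr22:35768099-35768107, were intergenic, and each was preceded by the same letters gaccg. The match nearer the gene, at chr22:35773149-35773157, lay in an exon of the lncRNA ENSG00000282041, and the far cluster was within 151 bp of the start of the lncRNA ENSG00000282602. Both lncRNAs were listed at 0 in both libraries. The upstream enhancers of HMOX1 are known as sites where NRF2 and its competitor BACH1 bind. Matches at GCLC (chr6:53480852-53480860 and chr6:53413047-53413055) and TXNRD1 (chr12:104674047-104674055) were intronic in long annotated forms of those genes. The match beside GCLM (chr1:94344148-94344156) lay in an exon of its neighbour DNTTIP2, 560 bp from a start of that gene.

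RNA levels are in FPKM, fragments mapped to a transcript normalised for its length and for library depth. All 9 genes reached an FPKM of 1 in each library and were called expressed, as were 58.8% of protein-coding genes. A level of 5 was reached in each library by 8 of the 9, SLC7A11 being the exception, and by 43.1% of protein-coding genes. The median of their mean FPKM was 29.8, against 3.33 for protein-coding genes, and the median of their ranks stood at percentile 88.6. On the log2(FPKM + 1) scale the difference of the medians was 2.83. FPKM is already per length, but it also depends on how evenly reads cover a transcript, which differed between these genes (below). Differences of level between genes are therefore differences in FPKM.

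**Figure D1:**
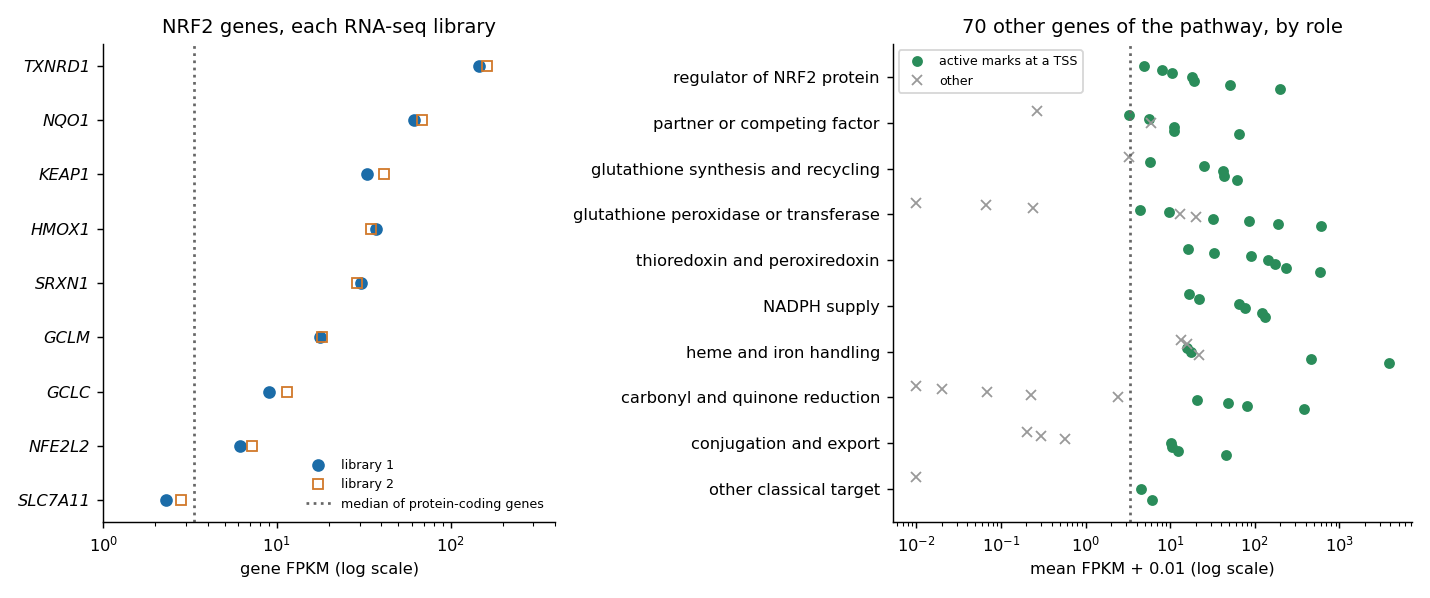
Left, gene FPKM (log scale) of the 9 NRF2 genes in RNA-seq library 1 (filled circles) and library 2 (open squares), with the median of 19645 protein-coding genes as a dotted line. Right, mean FPKM + 0.01 (log scale) of 70 other pathway genes by role, where green circles have H3K4me3 and H3K27ac peaks but no H3K27me3 peak at a TSS and grey crosses do not. TXNRD1 was highest at 146 and 162 FPKM, and SLC7A11 alone fell below the dotted line, at 2.31 and 2.82.

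Of the regulators, KEAP1 (ENSG00000079999, chr19:10596801-10614234) had the higher RNA level, at 32.9 FPKM in library 1 and 41.6 in library 2, a mean of 37.3 ± 6.15 (SD, n = 2). For NFE2L2 (ENSG00000116044, chr2:178083395-178257484) the values were 6.13 and 7.23 FPKM, a mean of 6.68 ± 0.774. The repressor thus stood above the factor it binds in both libraries, at percentile 91.4 against 60.4 of protein-coding genes. AGPS and HNRNPA3 overlap the long annotation of NFE2L2 on the opposite strand, at 13.9 and 74.6 FPKM in library 1, and the use of strand in counting was not stated.

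Among the targets, TXNRD1 (ENSG00000198431, chr12:104609557-104744085), the cytosolic thioredoxin reductase, had the highest level, at 146 and 162 FPKM (154 ± 10.7). The pseudogene RPL18AP3, on the same strand inside it, was listed at 39.95 and 46.3 FPKM. Next came NQO1 (ENSG00000181019, chr16:69740899-69760571), which reduces quinones directly to hydroquinones, at 61.7 and 68.9 FPKM (65.3 ± 5.10). HMOX1 (ENSG00000100292, chr22:35776354-35790207), the inducible heme oxygenase, was listed at 37.3 and 35.0 FPKM (36.2 ± 1.62). SRXN1 (ENSG00000271303, chr20:627259-633844), which repairs hyperoxidised peroxiredoxins, followed at 30.6 and 29.1 FPKM (29.8 ± 1.07).

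By FPKM, the lowest targets were the 3 that serve glutathione. GCLM (ENSG00000023909, chr1:94350755-94375012), the modifier subunit of the enzyme for its rate-limiting step, had 17.7 and 18.1 FPKM (17.9 ± 0.267). GCLC (ENSG00000001084, chr6:53362139-53481768), the catalytic subunit of the same enzyme, had 8.95 and 11.4 FPKM (10.2 ± 1.71), below GCLM in both libraries. SLC7A11 (ENSG00000151012, chr4:139085251-139163503), the cystine importer, was lowest at 2.31 and 2.82 FPKM (2.56 ± 0.360), at percentile 47.1. Its partner chain in the transporter, SLC3A2, had 40.3 and 43.5 FPKM.

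Neighbours in the order of levels, TXNRD1, NQO1, KEAP1, HMOX1, SRXN1, GCLM, GCLC, NFE2L2, SLC7A11, had library values that did not overlap, with the exception of KEAP1 and HMOX1. The mean of KEAP1 was 1.03 times that of HMOX1, and HMOX1 was the higher of the pair in library 1. The other neighbouring means differed by 1.21 to 2.61 times. This order holds for FPKM. By the median coverage of the internal exons of the highest transcript, HMOX1 (304 and 276) stood above KEAP1 (222 and 249) in both libraries. NQO1 (939 and 893) stood closer to TXNRD1 (1065 and 988) by that measure. Library 2 over library 1 ranged from 0.939 for HMOX1 to 1.27 for GCLC, so none of the 9 genes differed by more than 1.5 times between libraries. Of protein-coding genes whose mean FPKM was 5 or more, 3.87% did so. With 2 libraries, no test of these differences was made.

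H3K4me3 and H3K27ac peaks lay within 1 kb of a TSS in both replicates, with no H3K27me3 peak there in either, for 9 of 9 genes. That pattern was found in 51.4% of protein-coding genes, and in 81.2% of those called expressed. H3K4me3 alone was present in both replicates at 70.3% of protein-coding genes and H3K27ac at 55.0%. It also held at the canonical TSS alone for each of the 9. H3K27me3 was found this close to a start in none of them, where 11.4% of protein-coding genes had one in both replicates. The peak lists give positions without heights, so the read depth behind a peak is unknown and widths are what can be compared.

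Peak widths set the genes apart more than presence did. At NFE2L2 the widest H3K4me3 peak at a TSS was 5234 bp in replicate 1 and 2068 bp in replicate 2, and the widest H3K27ac peak 6222 and 3593 bp. TXNRD1 had H3K4me3 peaks of 4596 and 2327 bp and H3K27ac peaks of 5806 and 3856 bp. These were the 2 genes of the set with H3K27ac peaks above percentile 95 of protein-coding genes in both replicates (95.8 and 98.1 for NFE2L2, 95.2 and 98.4 for TXNRD1). NFE2L2 combined these wide marks with the second lowest FPKM of the 9, a value that includes a thinly covered last exon (below). By the median coverage of internal exons it stood above GCLC, at 84.3 and 125 against 77.9 and 90.5.

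GCLC had the narrowest H3K27ac peaks, at most 1157 bp in replicate 1 and 485 bp in replicate 2. Both of these lay at the upstream one of a pair of promoters about 3 kb apart. At the canonical TSS the peaks spanned 1140 and 331 bp. SLC7A11 depended most on the replicate: its H3K4me3 peak spanned 4891 bp in replicate 1 and 432 bp in replicate 2, and its H3K27ac peak 2963 and 530 bp. In replicate 2 the SLC7A11 H3K27ac peak ended at -247 bp, upstream of the TSS, and the H3K4me3 peak began at 318 bp, downstream of it. NQO1 showed a gap in H3K27ac at its TSS in replicate 2, between peaks that ended at -94 bp and began at 90 bp. KEAP1, HMOX1, GCLM and SRXN1 had widest H3K4me3 peaks of 2116 to 3104 bp in replicate 1 and 1004 to 1927 bp in replicate 2.

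**Figure D2:**
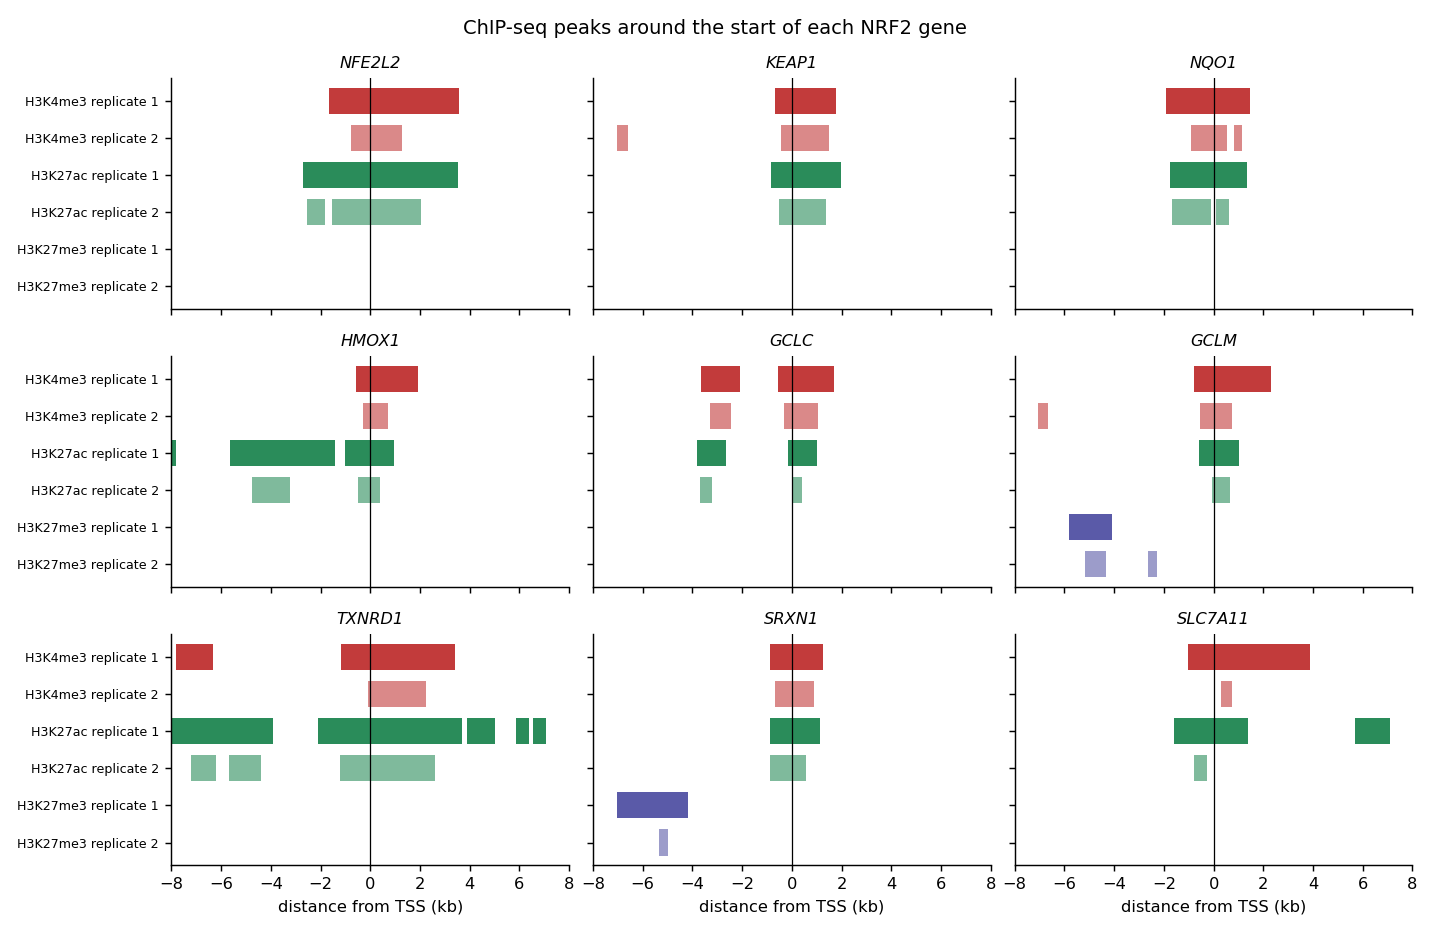
Positions of ChIP-seq peaks (bars) up to 8 kb either side of the TSS (vertical line) of each NRF2 gene, in 6 rows for 3 marks and 2 replicates. Red H3K4me3 and green H3K27ac bars stand at or beside every TSS, the green bars widest at NFE2L2 and TXNRD1, and violet H3K27me3 bars appear only upstream of GCLM and SRXN1.

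The 2 kb around the canonical TSS was covered by H3K27ac of both replicates over 869 bp at the median of the 9 genes, with a range from 331 bp for GCLC to 2001 bp for NFE2L2. Over all protein-coding genes the median was 273 bp, and over those with the active pattern it was 978 bp. For H3K4me3 the median of the 9 was 1325 bp, against 1413 bp for genes with the active pattern. The H3K27ac median of the 9 depended on replicate 2, whose peaks are narrower, and was 1881 bp with replicate 1 alone. For TXNRD1 the canonical start lies far upstream of the start used for its distances, and counted here with 673 bp. At the latter, H3K27ac peaks ran from -2109 to 3696 bp in replicate 1 and from -1235 to 2620 bp in replicate 2. A median taken there would be higher, so whether the 9 stand below 978 bp depends on the start chosen for TXNRD1.

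Within 8 kb of the TSS, H3K27me3 peaks were found at GCLM and SRXN1. Upstream of GCLM, replicate 1 had a peak from -5824 to -4077 bp, and replicate 2 had peaks from -5155 to -4342 bp and from -2653 to -2280 bp. Upstream of SRXN1, peaks ran from -7042 to -4170 bp in replicate 1 and from -5361 to -4992 bp in replicate 2. Chromosome 20, which carries SRXN1, held 7.83% and 13.0% of all H3K27me3 peaks in replicates 1 and 2, and also 3.21% and 8.07% of H3K4me3 peaks and 2.74% and 3.04% of H3K27ac peaks. Inside the long annotated body of GCLC there were 8 H3K27me3 peaks in replicate 1 and 3 in replicate 2, all upstream of the canonical TSS, the nearest ending at -33594 and -35586 bp. KEAP1 had peaks at a like distance outside the gene, ending at -33703 bp in replicate 1 and -33602 bp in replicate 2.

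H3K27ac away from any annotated TSS and shared by both replicates was found in the bodies or 50 kb flanks of 5 of the 9 genes, against 49.7% of protein-coding genes. Parts were counted where the replicates overlap, so a single peak of 1 replicate can give several. NFE2L2 had 6 such parts with 8330 bp in all, of which 3 lay between 18533 and 24539 bp downstream of its TSS. In replicate 1 those 3 lay in a single peak of 8123 bp. Another, from -2540 to -1819 bp, lay inside the promoter peak of replicate 1, and the remaining ones lay in the 50 kb flanks. TXNRD1 had 3 parts, with 6210 bp, and HMOX1 had 3, with 1550 bp, the nearest from 16276 to 17198 bp downstream of its TSS. NQO1 and GCLC had 1 each, and KEAP1, GCLM, SRXN1 and SLC7A11 had none. Parts near the starts of lncRNAs were left out of this count, and these included the HMOX1 upstream elements with the ARE patterns.

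HMOX1 held 4 of the 8 matches inside H3K27ac of both replicates. In replicate 1, H3K27ac peaks spanned -9968 to -7819 bp and -5644 to -1407 bp, and in replicate 2 they spanned -9648 to -8230 bp and -4752 to -3219 bp. All 4 upstream matches shown above lay inside these peaks in both replicates, and no H3K4me3 peak covered them in either. In replicate 1 an H3K4me3 peak from -9479 to -9108 bp lay in the far H3K27ac peak, beside the farthest match. A match in H3K27ac of both replicates within 10 kb of the canonical TSS was present for 2.17% of protein-coding genes, and 3 or more for 9 genes, or 0.0458%. HMOX1 was 1 of these 9. This count of neighbouring matches was chosen after the sequences had been seen and is a description.

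**Figure D3:**
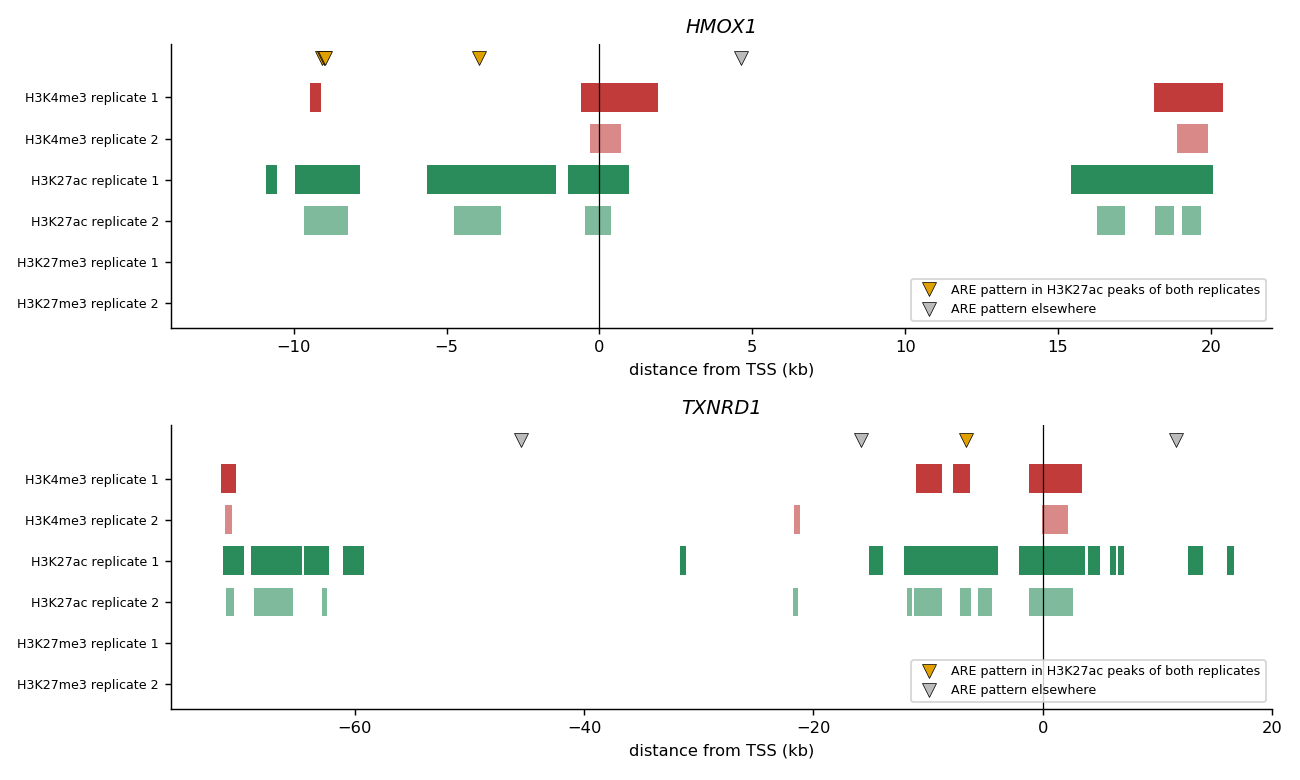
ChIP-seq peaks (bars, 3 marks in 2 replicates) by distance in kb from the TSS (vertical line) of HMOX1 and TXNRD1, with triangles at matches to the full ARE pattern. Yellow triangles lie in H3K27ac peaks of both replicates, 4 upstream of HMOX1 (3 of them drawn nearly on each other) and 1 at -6717 bp of TXNRD1.

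At NQO1 the match at -451 bp was the only one among the 28 that lay in both H3K4me3 and H3K27ac peaks of both replicates. The GCLC match at -3152 bp lay in H3K4me3 peaks of both replicates, but the nearest H3K27ac peak of replicate 2, from -3683 to -3199 bp, did not reach it. For TXNRD1, the match at -6717 bp lay in an H3K27ac peak of 8179 bp in replicate 1 and of 981 bp in replicate 2, and in an H3K4me3 peak of replicate 1 only. NFE2L2 had 2 matches in H3K27ac of replicate 1 alone, in an intron of AGPS, and KEAP1 had no match to the full pattern. At least 1 match in H3K27ac of both replicates was present for 5 of the 9 genes (NQO1, HMOX1, GCLC, GCLM and TXNRD1), against 10.6% of protein-coding genes over bodies and 50 kb flanks. Within 10 kb of the canonical TSS, 2 of the 9, NQO1 and HMOX1, had one, against 2.17%. The TXNRD1 match is not among these, since its canonical TSS lies far upstream. All 9 genes had H3K27ac at a TSS in both replicates, as did 55.0% of protein-coding genes. The share with a match among those alone was not computed. Over the genome, TGACTCAGC occurred 11.6 times per Mb, and 35.6 times per Mb inside H3K27ac of both replicates.

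The RefSeq promoter sequences (GRCh38.p14), 250 bases before to 50 after a start, included 10 windows for 7 of the genes, all but HMOX1 and SLC7A11. A core match was present in 4 of these windows, from GCLM, KEAP1 and TXNRD1, and in 13.3% of 35116 windows of all genes. The full pattern was in none of the 10 and in 0.561% of all windows. The 4 windows held 6 core matches, and after a match of their sequence to GRCh37, 5 lay under H3K4me3 and H3K27ac peaks of both replicates. The other, at -95 bp of the upstream TXNRD1 start, lay under peaks of replicate 1 alone. A match of each gene is given with its distance from the RefSeq start.
GCLM -30: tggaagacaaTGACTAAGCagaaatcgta
KEAP1 -27: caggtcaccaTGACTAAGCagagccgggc
TXNRD1 -98: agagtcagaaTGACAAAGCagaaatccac
A match is a run of letters and not a measured binding site, and NRF2 binding was not assayed.

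TXNRD1 has starts spread over its body, and marks and RNA could be set side by side at 2 of them. At the first, the canonical TSS on chromosome 12 at 104609557, H3K4me3 and H3K27ac of both replicates shared 613 and 673 bp of the 2 kb window. Transcripts that start more than 1 kb upstream of the main start, these included, held 0.021% of the gene's FPKM in library 1 and 0.002% in library 2. The main start, at 104680768, had the wide peaks given above. Transcripts that start within 1 kb of it held 45.6% and 79.5% of the FPKM, and those that start downstream held 54.3% and 20.5%. Most of the downstream share was that of ENST00000526950.1, at 52.2% and 15.3%. Coverage of exon 2 of ENST00000526390.5 was alike in the libraries (870 and 881), while that of its last exon was 316 and 728. These shares are estimates by transcript, and the use of starts was not measured.

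The division of FPKM among TXNRD1 transcripts therefore differed between libraries, while library 2 over library 1 was 1.10 for the gene as a whole. ENST00000526950.1 led in library 1 with 52.2% of the FPKM, and ENST00000526390.5 in library 2 with 65.7%. GCLC was likewise led by ENST00000616923.4 with 53.1% in library 1 and by ENST00000229416.10 with 41.0% in library 2. The leading transcript was the same in both libraries for the other genes, with a share from 39.1% for NQO1 in library 2 to 100% for SRXN1, which has 1 annotated transcript. HMOX1 was nearly as simple, at 96.4% and 97.6%, while GCLM had 65.2% and 93.4% and KEAP1 44.9% and 69.3%. Transcript shares are estimates from overlapping exons, and gene totals are the firmer values.

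**Figure D4:**
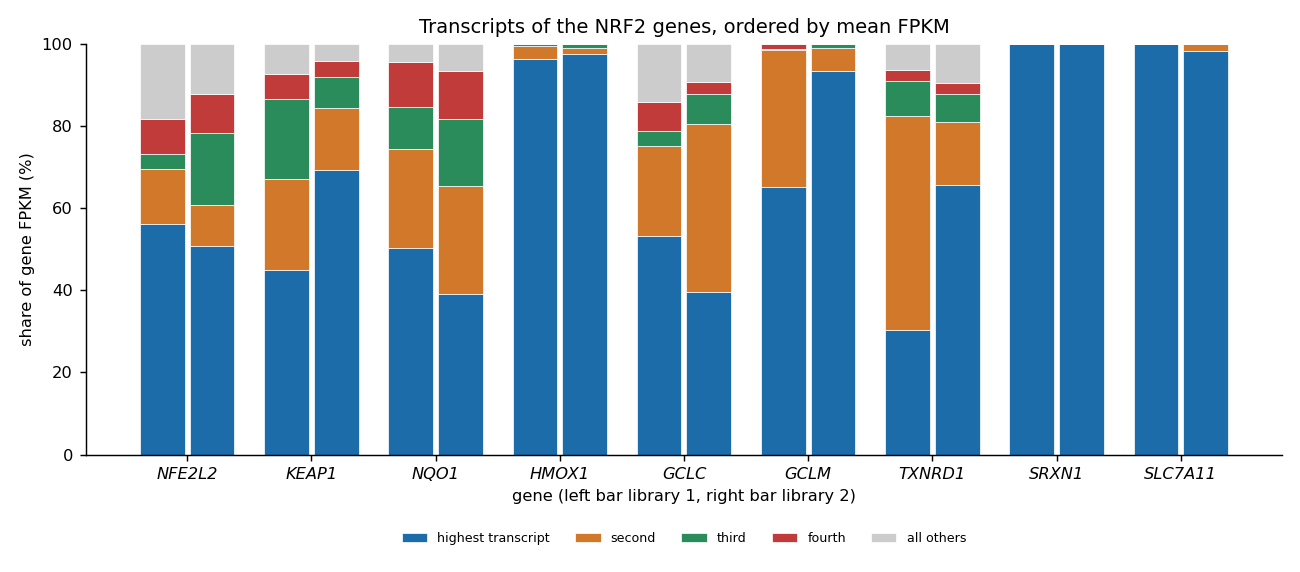
Share of gene FPKM (%) in each transcript of the 9 NRF2 genes, library 1 left and library 2 right, with transcripts stacked in order of mean FPKM and those after the fourth joined in grey. The bars of HMOX1, SRXN1 and SLC7A11 are nearly 1 colour in both libraries, while the bars of TXNRD1 differ between libraries.

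The deposited coverage per exon showed how evenly reads lay along each gene. In NFE2L2, the last exon of the leading transcript, 1704 bp long, had a coverage of 6.64 in library 1 and 6.29 in library 2. The internal exons of the same transcript had median coverages of 84.3 and 125. The ratio of last to internal exons was therefore 0.079 and 0.050, at percentiles 5.94 and 3.53 of 7649 genes that had a mean FPKM of 5 or more and 4 or more exons, whose median ratio was 0.508 and 0.509. Among 2792 genes whose last exon was 1000 to 3000 bp long, the median ratio was 0.594 in each library, and NFE2L2 stood at percentiles 5.27 and 3.01. FPKM averages over the length of a transcript, so the NFE2L2 level given above includes this long, thinly covered exon.

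NQO1 had a like profile, with last over internal ratios of 0.106 and 0.112, at percentiles 8.72 and 9.02. Its internal exons had median coverages of 939 and 893. HMOX1 was more even, with ratios of 0.700 and 0.699, and SLC7A11 had 0.990 and 0.698. The first exon of GCLM had 1.89 and 1.69 times the median coverage of its internal exons, at percentiles 99.5 and 99.3. In GCLC and TXNRD1 the ratio differed between libraries, 0.241 and 0.409 for GCLC and 0.297 and 0.736 for TXNRD1. These ratios were looked at after the levels, and the cause of the uneven coverage was not tested.

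**Figure D5:**
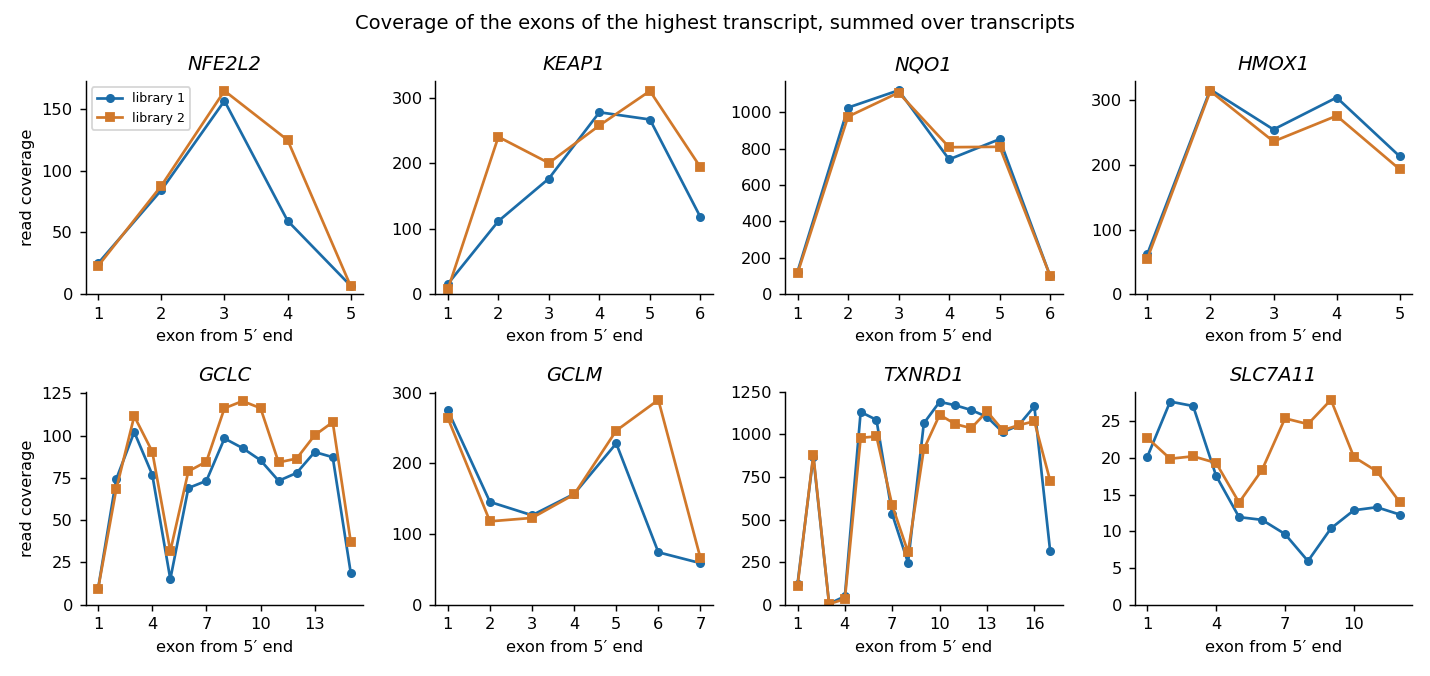
Read coverage of each exon of the highest transcript, numbered from the 5′ end and summed over the gene's transcripts, for 8 NRF2 genes with several exons, in library 1 (circles) and library 2 (squares). The last exon is low in NFE2L2 (6.64 and 6.29) and NQO1, and the libraries part in SLC7A11 and at the end of GCLM and TXNRD1.

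A further 70 genes of the pathway, grouped by role, gave the context. Of these, 58 (82.9%) were expressed by the same rule, against 58.8% of protein-coding genes, and 50 (71.4%) had the active marks at a TSS, against 51.4%. All 50 with active marks were expressed, 8 were expressed without them, and 12 had neither. Role groups are described by their counts alone, to be read beside the 58.8% and 51.4% of protein-coding genes. No group was tested against the others.

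All 7 regulators of NRF2 protein were expressed with active marks, from PALB2 at 4.88 ± 1.13 FPKM to SQSTM1, the autophagy receptor that sequesters KEAP1, at 233 and 166 FPKM (200 ± 47.0). Of 7 partners and competing factors, 6 were expressed. NFE2L1, a relative of NRF2, was highest at 64.2 ± 2.53 FPKM and BACH2 lowest at 0.259 ± 0.030. BACH2 and NFE2L3 had H3K27me3 at a TSS in both replicates, with NFE2L3 still at 5.96 and 5.83 FPKM.

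The supply lines of the antioxidant enzymes were fully expressed. All 7 thioredoxin and peroxiredoxin genes and all 6 genes of NADPH supply passed an FPKM of 1 with active marks. PRDX1, a peroxiredoxin, reached 486 and 686 FPKM (586 ± 142), and TXNRD2, the mitochondrial reductase, was lowest of its group at 16.2 ± 1.61. In NADPH supply the range was from ME1, malic enzyme, at 16.7 ± 0.278 to TKT, transketolase, at 132 ± 3.38. In glutathione synthesis and recycling 6 of 6 were expressed, from CHAC1, which degrades glutathione, at 3.22 ± 0.703 to GGT1 at 61.1 ± 4.30 FPKM.

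Heme and iron genes were expressed in 7 of 7 cases and had active marks in 4 (57.1%, against 51.4% of protein-coding genes). FTL, the ferritin light chain, was the highest gene of the list at 3878 and 3780 FPKM (3829 ± 68.8), and BLVRB was lowest of its group at 13.5 ± 0.304. BLVRB had H3K4me3, H3K27ac and H3K27me3 peaks at a TSS in both replicates. Ferritin genes have processed pseudogenes of nearly the same sequence, and their values are uncertain for that reason.

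Levels of detoxifying enzymes spanned a wide range. Among glutathione peroxidases and transferases 8 of 11 were expressed, with GSTP1 at 607 ± 19.7 FPKM, while GSTA1 was listed at 0 in both libraries and had H3K27me3 at a TSS in both replicates. GSTM3 had H3K27me3 in both replicates too, at 19.96 ± 0.764 FPKM. Of carbonyl and quinone reductases 5 of 9 were expressed (55.6%, near the 58.8% of all protein-coding genes), with AKR1B1, aldose reductase, at 386 ± 2.81 FPKM and ALDH3A1 listed at 0. Of genes of conjugation and export 4 of 7 were expressed (57.1%, again near that share). UGDH, which makes UDP-glucuronate, was highest at 46.2 ± 1.35, ABCC2 was lowest at 0.192 ± 0.110, and ABCG2 at 0.290 ± 0.200 had H3K27me3 in both replicates. Of the remaining targets, PIR had 6.16 ± 0.743 FPKM and CES1 was listed at 0. AKR1C, GSTA, GSTM and UGT1A genes have near-identical relatives among which reads can be divided.

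The labelled cell type was checked with 28 marker genes. Of 11 proximal tubule markers 3 were expressed, PAX8 at 102 FPKM, GGT1 at 61.1 and the glucose carrier SLC5A2 at 1.96, while LRP2, SLC22A6 and HNF4A were listed at 0 in both libraries. Epithelial markers were expressed in 4 of 5 cases without CDH1, and mesenchymal markers in 2 of 4, with VIM at 709 and 1133 FPKM. None of 2 endothelial, 3 podocyte and 3 leukocyte markers was expressed. A further listed endothelial marker, PECAM1, was not matched to the annotation and is left out. HK2 RNA in these libraries thus lacked most defining genes of the proximal tubule, which limits the line as a model of that segment. From coverage over FPKM, the depth was 5.67 Gb of aligned sequence for library 1 and 5.52 Gb for library 2, and the 6 peak lists held 29130 to 73942 peaks with median widths of 434 to 1357 bp.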

How the data were processed

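RNA-seq and ChIP-seq of HK2 cells were analysed, and input DNA and HiChIP samples were not used here. For RNA, HISAT2 was the authors' aligner, and the deposited values are FPKM, TPM and coverage per transcript and exon from StringTie 1.3.3. The study names hg19 for this mapping, whereas the file headers and coordinates are those of GENCODE 27 on GRCh38, so genes were joined to peaks by Ensembl identifier only. For ChIP-seq, the authors used Bowtie2 on hg19 and, from unique alignments, MACS2 in each replicate. The deposited lists have 3 columns, without a score. The unnumbered replicate of each mark was called replicate 1.

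FPKM was summed per gene. A peak counted with 1 bp inside 1 kb of any TSS of GENCODE 44 mapped to GRCh37, on 24 chromosomes. Percentiles are among 19645 protein-coding genes. TXNRD1 distances are from the start of ENST00000526390.5, and those of other genes from the canonical TSS. No test was made, since there is 1 condition, and SD covers 2 libraries. Python 3.11.15, numpy 2.4.6, pandas 2.3.3 and matplotlib 3.10.9 were used, and the overlap functions were tested on simulated data. The genes, lists and rules were chosen with earlier results of these data known. The rule for named genes took all 9 NRF2 genes, the highest and lowest gene of each role, every pathway gene with H3K27me3 at a TSS in both replicates, and the defining tubule markers. SLC3A2, VIM, CDH1, lncRNAs and overlapping genes were named beside these for their role, position or level. Of 71 listed pathway genes 70 were matched. Alternatives covered replicates, TPM, FPKM minimum, pseudocount, background, transcripts, TSS window, overlap, pattern and flanks. Some sequences near these genes are not reported here.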

Additional observations from a re-analysis of the deposited data

How the results depend on the processing

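All 9 genes kept their expression call and the active promoter pattern, and none gained H3K27me3, when either replicate was left out, in TPM, with TSS windows of 500 bp or 2 kb, at the canonical TSS alone and with 200 bp of overlap. With an FPKM minimum of 5, 8 genes passed, SLC7A11 being below it, against 43.1% of protein-coding genes. The median percentile of 88.6 ranged from 88.3 to 89.0 with 1 library left out. It was 83.8 where only genes averaging 0.1 FPKM or more were ranked, 95.9 among all annotated genes and 90.2 with the highest transcript only. The log2 difference of medians, 2.83, ranged from 2.79 to 2.90 with 1 library left out, and was 3.03 in TPM, 3.13 with a pseudocount of 0.1, 1.72 with the filter at 0.1, 4.95 among all annotated genes and 3.05 with the highest transcript. The H3K27ac median of 869 bp at the canonical TSS was 869 bp without replicate 1 and 1881 bp without replicate 2. It was 818 bp within 500 bp of that TSS and 869 bp within 2 kb. Distal H3K27ac was present for 5 to 7 genes with 1 replicate left out, and for 3 with 10 kb flanks. Promoters with a match fell from 3 genes with the core to 0 with the full pattern, which is 1 form of the core and so cannot occur in more genes. In the pathway list, 58 to 59 genes were expressed and 50 to 55 had the active marks with 1 replicate left out. No paired analysis was possible because all samples belong to 1 condition and no result comes from a test. Peak depth is unknown, so an absent peak may lie under the detection limit of a replicate.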
